A study of Rattus norvegicus with 4 samples.

Results

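Immediate early genes were described in lumbar dorsal root ganglia (DRGs) of rats given cisplatin or vehicle early in life. The rule named 10 genes, Fos, Fosb, Junb, Egr1, Egr3, Arc, Nr4a1, Ier2, Dusp1 and Npas4, and asked for a protein-coding row of the same name in the deposited count table. It found 9 of them among 22293 protein-coding genes, and 8 of these passed the filter on low counts, as did 14719 genes in all. No values of these libraries entered the rule, but its genes were chosen with earlier results of these data known. Ier2 had no protein-coding row of that name. A row that carries the Ier2 protein name is annotated as a pseudogene, and its counts are given apart from the members below.

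The samples were 4 libraries, 2 with vehicle and 2 with cisplatin, all from WT neonatal Wistar rats. Cisplatin, a platinum-based chemotherapeutic that forms DNA adducts, was given at 0.3 mg/kg by intraperitoneal injection at P14 and P16, and vehicle was PBS. Ganglia were collected at P23 by the study's methods, but 16 days after treatment by the labels. Several lumbar DRGs were pooled for each library, so each value is a mean over whole ganglia with their neurons, glia, vessels and connective tissue, and which sex each rat was is not given in the sources used here.

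Immediate early genes are transcribed within minutes of a stimulus without new protein synthesis, because the factors that switch them on, SRF with its ternary complex partners and CREB, are already bound to their promoters and are activated by phosphorylation. In sensory neurons calcium entry and MAP kinase signalling drive them, and growth factors, injury and handling of tissue induce them in glia and other cells as well. Most of their transcripts decay fast, so a measured level reflects the recent past of the tissue. The first products are transcription factors of the AP-1, EGR and NR4A families, together with phosphatases that shut the kinase signal down again and, in neurons, synaptic effectors.

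Total counts ran from 21384801 to 25618417 per library. All 13 sensory neuron markers examined passed the filter, with summed levels of 25299 to 40499 CPM (counts scaled to the normalised library size). All 8 Schwann cell markers were lower after cisplatin, with overlapping groups, no call and a median log2 fold change of -0.31, whereas 12 of the 13 sensory neuron markers were higher, also without a call, with a median of 0.31. The summed Schwann cell marker level was 61942 and 157940 CPM in vehicle replicates 1 and 2, and 49039 and 138737 CPM in cisplatin replicates 1 and 2. Skeletal muscle markers, 5 of which had a row, summed to 629 CPM in vehicle replicate 1 and to 18.8, 63.0 and 19.8 CPM in vehicle replicate 2 and cisplatin replicates 1 and 2. The part of this muscle RNA in the results below was not tested. Without vehicle replicate 1 the log2 fold changes of the members ran from -0.67 for Egr3 to 0.31 for Junb, and no member was called. Of the endothelial markers, Cldn5 was at 0 in every library and the other 5 with a row had counts.

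No member passed the test between cisplatin-treated and vehicle-treated rats. Genes were compared with edgeR's quasi-likelihood test and called at an adjusted p (Benjamini-Hochberg, over all genes tested) under 0.05 where the fold change reached 1.5. By this rule 0 of 8 members tested were called, against 0.00679% of all genes tested (1 of 14719). At an unadjusted p under 0.05 with the same fold change the count was also 0 of 8, where 7.95% of all genes passed. DESeq2 called 0 of the 7 members to which it gave an adjusted p, all but Fosb, and 0.981% of the 12848 genes to which it gave an adjusted p. With 2 libraries against 2, the smallest two-sided p that exact permutation of the libraries allows for 1 gene is 0.333, so these tests rest on a spread modelled across genes. That separate rats stand behind the libraries comes from the numbering in the sample titles.

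The members covered a wide range of levels, compared here per length in FPKM, fragments scaled to gene length and by a factor per library. Nr4a1 was the most abundant, at 17.6 to 36.6 FPKM over the 4 libraries, and its median level lay above 80.9% of the genes tested. Junb and Dusp1 followed at 9.31 to 13.3 and 8.23 to 11.3 FPKM, then Egr1 at 3.85 to 5.85, Fos at 3.17 to 4.40, Arc at 1.87 to 3.25 and Egr3 at 1.48 to 2.48 FPKM. Fosb was low, at 0.226 to 0.263 FPKM, and Npas4 was near the limit of detection. Neighbours in this order with ranges that overlap were Junb and Dusp1, Egr1 and Fos, Fos and Arc, and Arc and Egr3; Nr4a1, Fosb and Npas4 did not overlap with their neighbours.

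**Figure D1:**
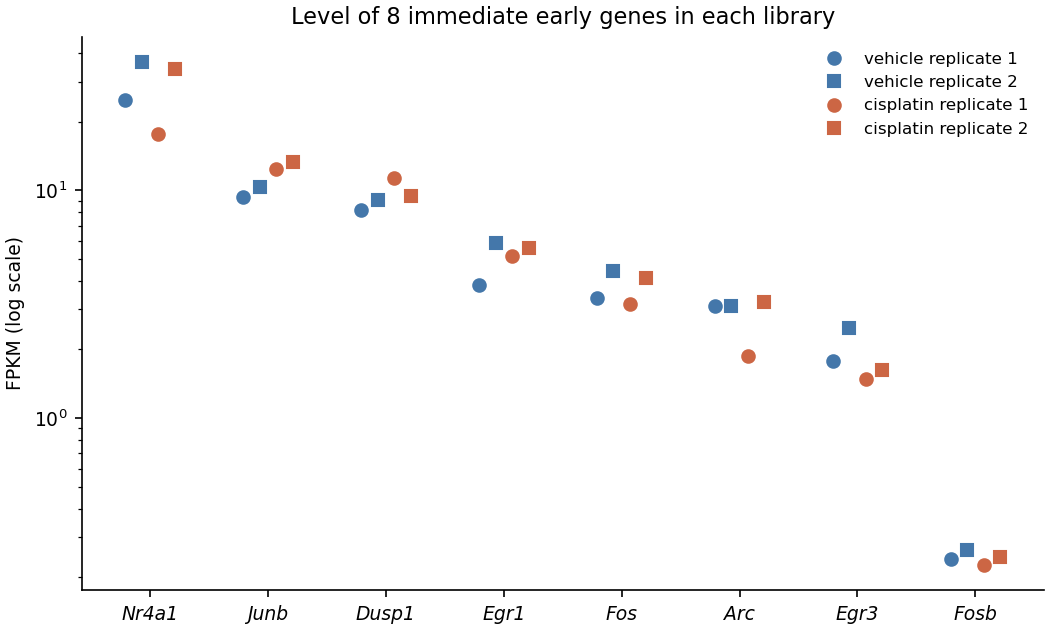
Level of the 8 members tested in each library, as FPKM on a log axis, ordered by median; each point is 1 library, blue for vehicle and orange for cisplatin, circles for replicate 1 and squares for replicate 2. Nr4a1 lies at 17.6 to 36.6 FPKM and Fosb at 0.226 to 0.263 FPKM. On this scale the colours separate for Junb, Dusp1 and Egr3 only, but over the total count alone they overlap for Dusp1.

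Fos and FosB are the inducible partners of the AP-1 transcription factor, which forms as a dimer with a Jun protein. Fos (ENSRNOG00000008015; chromosome 6, 109300433 to 109303299, Rnor_6.0) had 137 and 142 counts in vehicle replicates 1 and 2 and 131 and 157 counts in cisplatin replicates 1 and 2. Pairs of values below keep this order of replicates. Scaled to library size, these were 5.47 and 7.21 CPM against 5.16 and 6.67 CPM, so the groups overlapped, with the lowest and the second highest value both after cisplatin. Its mean was 6.34 ± 1.23 CPM with vehicle and 5.91 ± 1.07 CPM with cisplatin (SD, n = 2 each), a log2 fold change of -0.10 (standard error, SE, 0.31, edgeR adjusted p = 0.927). The 95% interval ran from 0.546-fold to 1.595-fold. The direction rested on single libraries, at 0.11 without vehicle replicate 2 and 0.09 without cisplatin replicate 1, against -0.28 without vehicle replicate 1 and -0.30 without cisplatin replicate 2.

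Fosb (ENSRNOG00000046667; chromosome 1, 80214494 to 80221710), the gene of the Fos paralogue whose truncated form accumulates with repeated stimulation in the brain, had 23 and 20 counts with vehicle and 22 and 22 with cisplatin. Both groups lay between 0.866 and 1.02 CPM. Its log2 fold change was -0.10 (SE 0.45, edgeR adjusted p = 0.952), and with 1 library left out at a time it ran from -0.16 to -0.026. Counting error alone is 21.3% at its median count, and its interval, 0.427-fold to 2.03-fold, was the widest among the members.

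Junb encodes a Jun protein that pairs with Fos and often restrains c-Jun. Junb (ENSRNOG00000042838; chromosome 19, 26092974 to 26094756) had 424 and 375 counts with vehicle and 575 and 570 with cisplatin, or 16.9 and 19.1 CPM against 22.6 and 24.2 CPM. Both cisplatin-treated libraries were above both vehicle-treated libraries. Mean levels were 18.0 ± 1.49 and 23.4 ± 1.13 CPM (SD, n = 2 each). Of the members Junb came nearest to the threshold but did not pass it, with a log2 fold change of 0.38, SE 0.20 (edgeR adjusted p = 0.571), and its interval ran from 0.927-fold to 1.83-fold.

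The EGR zinc finger factors bind GC-rich promoters and carry the early signal to later genes. Egr1 (ENSRNOG00000019422; chromosome 18, 27657628 to 27661429) had 308 and 372 counts with vehicle and 417 and 420 with cisplatin. In CPM the values were 12.3 and 18.9 against 16.4 and 17.9, with both cisplatin-treated libraries inside the range of the vehicle-treated libraries. The higher raw counts after cisplatin thus did not stay apart once depth was taken into account. Its log2 fold change was 0.14 (SE 0.27, edgeR adjusted p = 0.889), and it was -0.13 without vehicle replicate 1 and 0.48 without vehicle replicate 2.

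Egr3 (ENSRNOG00000017828; chromosome 15, 51756736 to 51760715), which muscle spindles need to form, had 123 and 136 counts with vehicle and 104 and 106 with cisplatin. These were 4.91 and 6.91 CPM against 4.09 and 4.51 CPM, with both cisplatin-treated libraries below. Its mean was 5.91 ± 1.41 CPM with vehicle and 4.30 ± 0.291 CPM with cisplatin (SD, n = 2 each). The log2 fold change was the furthest from 0 among the members, at -0.46 (SE 0.32, edgeR adjusted p = 0.657), with an interval from 0.418-fold to 1.27-fold. Without vehicle replicate 2, the higher of the vehicle-treated libraries, it was -0.19.

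Nr4a1 encodes Nur77, an orphan nuclear receptor that needs no known ligand for its early activity and that monocytes and macrophages use as well as neurons. Nr4a1 (ENSRNOG00000007607; chromosome 7, 142905758 to 142920216) had 1690 and 1978 counts with vehicle and 1215 and 2175 with cisplatin. Its levels were 67.5 and 100.5 CPM against 47.8 and 92.4 CPM. Cisplatin replicate 1 was the lowest library and vehicle replicate 2 the highest, and the spread over the 4 libraries, 1.07 on the log2 scale, was wider than for 75.1% of the genes tested. Counting error is 2.34% at its median count. The log2 fold change was -0.26 (SE 0.37, edgeR adjusted p = 0.838). It was 0.15 without cisplatin replicate 1 and 0.06 without vehicle replicate 2, but -0.81 without cisplatin replicate 2 and -0.51 without vehicle replicate 1, so its direction rested on single libraries.

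Npas4 encodes a neuron-restricted factor that answers calcium entry. Npas4 (ENSRNOG00000020009; chromosome 1, 220261008 to 220265772) had 0 and 1 counts with vehicle and 0 and 1 with cisplatin, and the filter removed it. A count of 0 allows up to 3 counts, which is 0.118 to 0.152 CPM in these libraries. At this depth Npas4 was at or under that floor in both groups, and no fold change is given.

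Dusp1 encodes a nuclear phosphatase that dephosphorylates p38, JNK and ERK and is itself an early response gene. Dusp1 (ENSRNOG00000003977; chromosome 10, 16970626 to 16973418) had 407 and 355 counts with vehicle and 569 and 437 with cisplatin. Levels were 16.3 and 18.0 CPM against 22.4 and 18.6 CPM, and the cisplatin-treated libraries were above, the nearer of them by less than 1 CPM. Over the total count alone, cisplatin replicate 2 lay between the vehicle-treated libraries. The log2 fold change was 0.26 (SE 0.21, edgeR adjusted p = 0.704), with an interval from 0.831-fold to 1.72-fold. It was 0.13 without cisplatin replicate 1 and 0.39 without cisplatin replicate 2. Dusp1 is also induced by glucocorticoids, as is Per1 below.

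Arc encodes a capsid-like protein that moves with its own mRNA to synapses. Arc (ENSRNOG00000043465; chromosome 7, 115907097 to 115910541) had 241 and 190 counts with vehicle and 147 and 236 with cisplatin. Both vehicle-treated libraries were at 9.63 and 9.65 CPM, whereas cisplatin replicate 1 was at 5.79 and cisplatin replicate 2 at 10.03 CPM, the lowest and the highest of the 4. The log2 fold change was -0.29 (SE 0.33, edgeR adjusted p = 0.794), and it was 0.07 without cisplatin replicate 1 and -0.74 without cisplatin replicate 2.

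The row outside the rule that carries the Ier2 protein name, AC120246.2 (ENSRNOG00000054344; chromosome 19, 25774143 to 25775659, annotated as a pseudogene), was read because Ier2 is named in the rule. It had 432 and 472 counts with vehicle and 529 and 455 with cisplatin, or 17.3 and 24.0 CPM against 20.8 and 19.3 CPM. The cisplatin-treated libraries lay inside the range of the vehicle-treated libraries. In the fit over all gene biotypes its log2 fold change was -0.04 (SE 0.24, edgeR adjusted p = 0.969).

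Promoter sequences from RefSeq (GRCr8) were matched for 7 of the 10 genes; Fos, Egr3 and Arc had no entry. The 250 bases before the annotated start are shown for the 3 members with the highest level per length, with each CGTCA or its reverse complement TGACG, the core of the site that CREB binds, in capitals.
Nr4a1, chr7:134259888-134260137, plus strand: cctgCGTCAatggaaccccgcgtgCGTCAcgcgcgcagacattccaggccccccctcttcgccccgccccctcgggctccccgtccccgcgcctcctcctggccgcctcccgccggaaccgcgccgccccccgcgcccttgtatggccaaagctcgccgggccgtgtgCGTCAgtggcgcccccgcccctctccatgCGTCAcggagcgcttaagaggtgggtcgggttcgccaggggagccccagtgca
Junb, chr19:40080876-40081125, plus strand: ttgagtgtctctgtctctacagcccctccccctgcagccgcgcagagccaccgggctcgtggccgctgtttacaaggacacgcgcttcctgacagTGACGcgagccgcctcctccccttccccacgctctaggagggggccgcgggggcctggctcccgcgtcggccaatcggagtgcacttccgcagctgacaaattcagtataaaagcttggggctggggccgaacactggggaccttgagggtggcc
Dusp1, chr10:17184603-17184852, plus strand: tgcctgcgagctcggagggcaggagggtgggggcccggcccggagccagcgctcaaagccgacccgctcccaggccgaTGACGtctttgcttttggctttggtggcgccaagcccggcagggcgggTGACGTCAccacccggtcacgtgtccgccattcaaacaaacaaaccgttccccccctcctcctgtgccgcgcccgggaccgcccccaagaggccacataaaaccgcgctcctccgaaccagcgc

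Searched on both strands, this core was found 4 times for Nr4a1, 3 times for Dusp1, where 2 of the matches overlap in the full palindrome TGACGTCA, 2 times each for Egr1 and Ier2, and 1 time for Junb. It occurred in 5 of the 7 promoters matched and in 18.2% of 33469 promoters of the same length. The palindrome, which contains the core on both strands, was in Dusp1 and Ier2 and in 1.59% of all promoters. The CArG box, to which SRF binds, was found in 1 of the 7 promoters matched, 2 times for Egr1, and in 1.5% of all promoters. Fos, Egr3 and Arc were not searched for any of these sites, and bases further upstream were not searched for any gene. None of the genes with a core that were tested, Nr4a1, Dusp1, Egr1 and Junb, passed the test.

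The difference between the libraries of a group was set beside the log2 fold change. The first compares 2 single libraries and the second compares means of 2 libraries, which vary less, so similar sizes do not mean an equal spread. Over the 8 members tested, the median size of the difference between the libraries of a group was 0.28 on the log2 scale for vehicle and 0.20 for cisplatin, and the median size of the log2 fold change was 0.26. Over all genes tested the same medians were 0.31, 0.34 and 0.28, so this is not particular to the members. Junb was an exception, with 0.38 between the groups and 0.17 and 0.10 between the libraries of vehicle and of cisplatin. Vehicle replicate 2 was above vehicle replicate 1 for 8 of 8 members. Cisplatin replicate 2 was above cisplatin replicate 1 for 7 of 8, with Dusp1 as the exception. A gene that was higher in replicate 2 in both groups was found in 7 of 8 members and in 38.2% of all genes tested. The share was 63.6% of the 66 genes tested of the wider immediate early list below, which includes the members. For Arc the vehicle libraries differed by only 0.0037. These levels are scaled by normalisation factors that are lower for replicate 2, at 1.10 and 0.941 for vehicle and 1.03 and 0.938 for cisplatin. The part of this scaling in the counts was not tested. In each group replicate 2 was also the library with the higher Schwann cell marker level, whereas the summed sensory neuron markers were lower in them, at 25299 and 28967 CPM against 32956 and 40499 CPM. The part of the cell mixture in the members' levels was not tested, and in bulk tissue fewer cells of a type and less RNA per cell cannot be told apart.

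**Figure D2:**
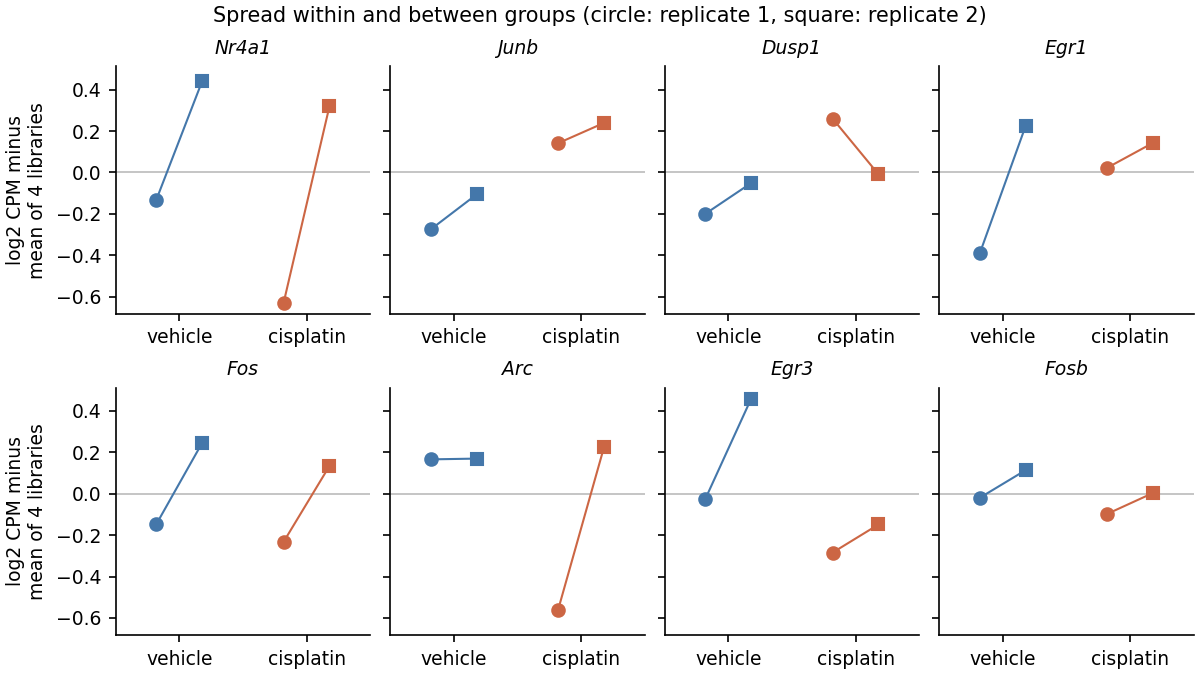
Log2 CPM of each member tested, minus its mean over the 4 libraries, for vehicle (blue) and cisplatin (orange); circles are replicate 1 and squares replicate 2, joined within a group. On this scale, which includes the normalisation factors, replicate 2 is the higher library in both groups for every member shown except Dusp1. The groups stay apart on it only for Junb, Dusp1 and Egr3. Both patterns differ over the total count alone.

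Read together, 3 of 8 members were higher and 5 lower after cisplatin, where 49.1% of all genes tested were higher. Their median log2 fold change was -0.10, beside -0.01 over all genes. Single libraries set this balance, since 5 of 8 members were higher with a median of 0.09 without vehicle replicate 2, and 6 of 8 with a median of 0.11 without cisplatin replicate 1. It went the other way without vehicle replicate 1, with 2 of 8 higher and a median of -0.22, and without cisplatin replicate 2, with 3 of 8 and -0.23. The groups did not overlap for 3 of 8 members, Junb and Dusp1 above and Egr3 below, against 41.8% of all genes tested (20.6% above and 21.2% below). This count depends on the normalisation. Over the total count alone the groups overlapped for Dusp1, whereas Fosb, with 20 to 23 counts, was lower in both cisplatin-treated libraries. No member reached a fold change of 1.5 in either direction, whereas 19.6% of all genes did. The 95% intervals leave room for changes of moderate size. An interval reached a doubling only for Fosb, and a halving was inside the interval of Nr4a1, Arc, Egr3 and Fosb, so that 4 of 8 excluded it. A 1.5-fold rise was outside the interval of 2 of 8 members, Arc and Egr3.

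**Figure D3:**
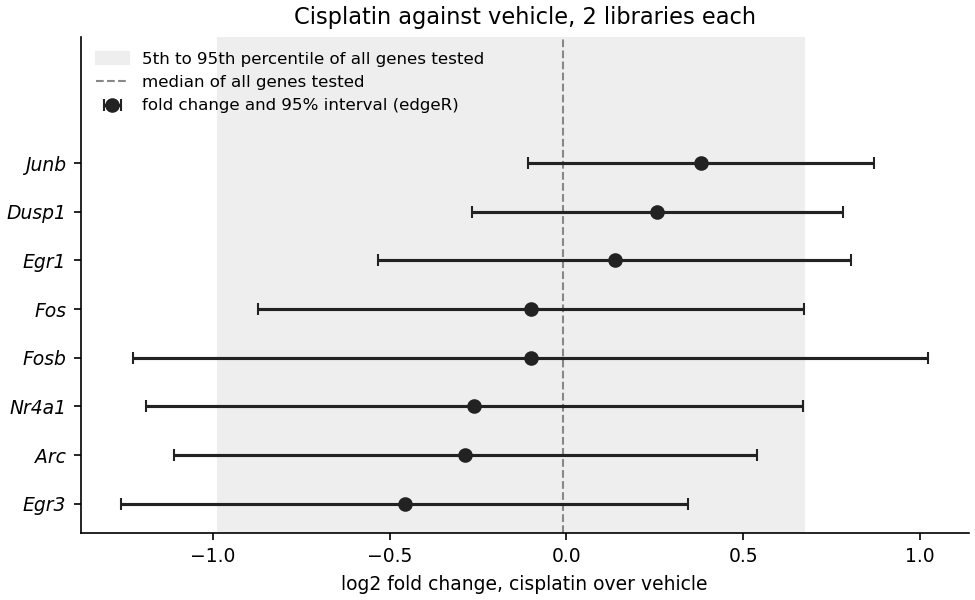
Log2 fold change of cisplatin over vehicle for the 8 members tested (points) with 95% intervals from edgeR (bars); the dashed line is the median of all genes tested, -0.01, and the grey band runs from their 5th to their 95th percentile, -0.98 to 0.67. Points run from -0.46 for Egr3 to 0.38 for Junb, and every interval includes 0.

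The other immediate early genes were taken from a list of 72 genes ordered by role, which includes the members. Of these, 66 were tested, 23 higher and 43 lower, and their log2 fold changes had a median of -0.11. edgeR called 0 of 66 and DESeq2 1, Per1, and 3 passed an unadjusted p under 0.05 with a 1.5-fold change in edgeR, all of them lower: Per1, Klf6 and Dusp4. This share, 3 of 66, lies under the 7.95% of all genes. In 22 of 66 genes the groups did not overlap, 8 above and 14 below, against 41.8% of all genes.

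Among the AP-1 genes, the 5 outside the members had a median of -0.10. Jun, which encodes the main partner of Fos and rises in injured sensory neurons, had 2516 and 2391 counts with vehicle and 2607 and 2456 with cisplatin, a log2 fold change of -0.10 (edgeR adjusted p = 0.885). Jund, the least inducible Jun gene, was at 141 to 143 FPKM in every library, the highest level of the AP-1 genes. Atf3, which sensory neurons switch on after axon damage, had 386 and 418 counts against 322 and 569 counts and a log2 fold change of 0.01 (SE 0.36, edgeR adjusted p = 0.996). The Fos-related genes Fosl2 and Fosl1 were lower in both cisplatin-treated libraries, at log2 fold changes of -0.88 and -0.70, without passing the test (edgeR adjusted p = 0.567 and 0.608). Fosl2 had 52 and 29 counts against 23 and 24 counts.

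In the EGR, NR4A and NPAS families, 3 genes outside the members were tested and all 3 had negative values, none of which passed. Egr2, the Schwann cell myelination factor, was more abundant than Egr1, at 23.6 and 56.4 FPKM with vehicle and 12.5 and 36.1 FPKM with cisplatin. Its log2 fold change was -0.73 (SE 0.61, edgeR adjusted p = 0.712), and it was higher by 1.27 and 1.52 on the log2 scale in replicate 2 of vehicle and of cisplatin, the libraries with more Schwann cell marker RNA. Egr2 is itself 1 of the 8 Schwann cell markers, which were all lower after cisplatin, and the part of Schwann cell RNA in its value was not tested. Nr4a3 had 21 and 17 counts against 15 and 9 counts (log2 fold change -0.80, edgeR adjusted p = 0.635). Nr4a2 gave -0.27 with overlapping groups. Egr4 was removed by the filter, with at most 13 counts in a library.

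Other early regulators held the gene furthest from 0 on the list. Per1, a circadian clock repressor that CREB and glucocorticoids also induce as an early gene, had 761 and 751 counts with vehicle and 347 and 416 with cisplatin, or 34.3 ± 5.48 against 15.7 ± 2.84 CPM (SD, n = 2 each). Both cisplatin-treated libraries were below. Its log2 fold change was -1.13 (SE 0.24, edgeR adjusted p = 0.522), and DESeq2 gave an adjusted p of 0.0448, which became 0.0517 with that tool's default filtering. Over all alternatives its adjusted p ran from 0.00183 to 0.995, always with a negative log2 fold change. Klf6, a zinc finger factor of injury and growth responses, had 554 and 456 counts against 257 and 359 counts (log2 fold change -0.84, edgeR adjusted p = 0.522). Csrnp1 gave -0.52, with 125 and 94 against 82 and 84 counts. Of the 20 genes of this group tested, 7 were higher and 13 lower.

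Feedback genes, which end the signal, numbered 17 tested, 5 higher and 12 lower. Dusp4, the gene of a nuclear MAP kinase phosphatase related to Dusp1, had 513 and 358 counts with vehicle and 351 and 263 with cisplatin. In CPM it was 19.3 ± 1.63 against 12.5 ± 1.86 (SD, n = 2 each), lower in both cisplatin-treated libraries, with a log2 fold change of -0.63 (edgeR adjusted p = 0.522). Dusp2 gave 0.73 at 11 to 37 counts per library, and Trib1 gave -0.52 (edgeR adjusted p = 0.659 and 0.602). Dusp4 thus had a negative and Dusp1 a positive value, and a difference between them was not tested.

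Effector genes were split, with 8 of 15 tested above 0. Bdnf, which encodes a neurotrophin made by nociceptors, had 585 and 478 counts with vehicle and 837 and 728 with cisplatin, and both cisplatin-treated libraries were above. Its log2 fold change was 0.42 (SE 0.18, edgeR adjusted p = 0.537), beside the median of 0.31 of the sensory neuron markers, whose part in it was not tested. Cyr61, a matricellular target of SRF, and Tiparp, a mono-ADP-ribosyltransferase, gave -0.48 and -0.47 with overlapping groups. Cyr61 had its lowest level in cisplatin replicate 1, at 11.2 CPM, as did the members Nr4a1, Fos, Arc, Egr3 and Fosb. The members Junb, Dusp1 and Egr1 had theirs in vehicle replicate 1.

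**Figure D4:**
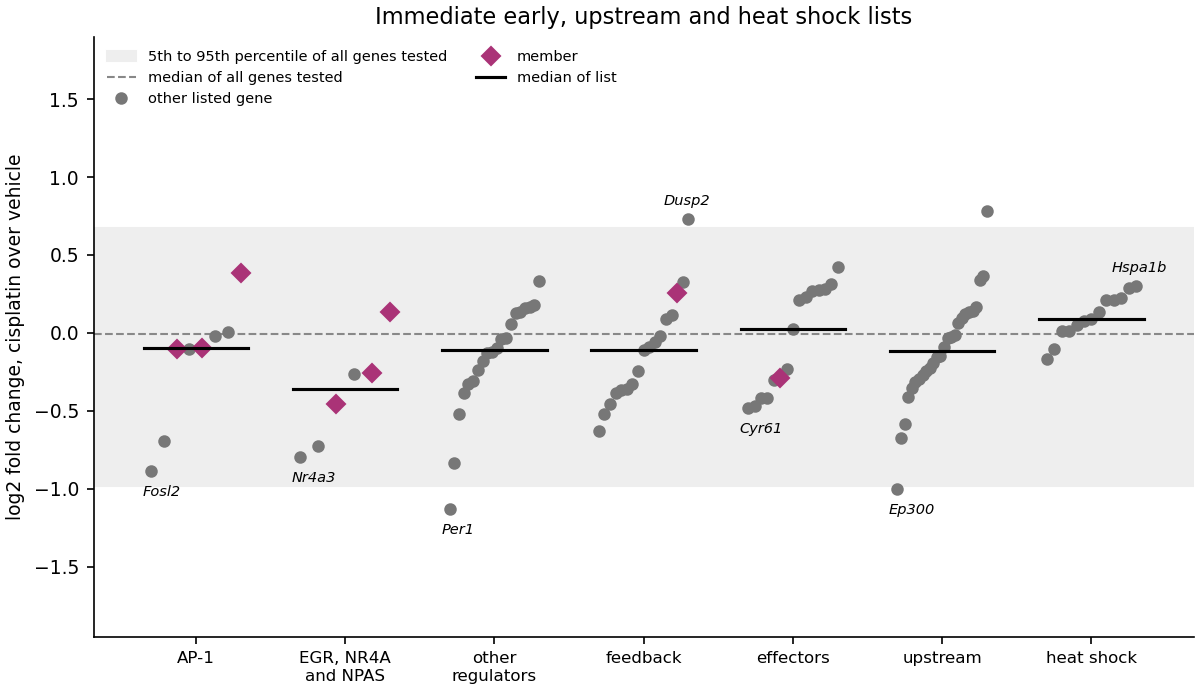
Log2 fold change of cisplatin over vehicle for each gene tested of the immediate early lists by role, the upstream list and the heat shock list; diamonds are members, grey points other listed genes, black bars list medians, the dashed line the median of all genes and the grey band their 5th to 95th percentile. Per1, at -1.13, lies lowest, and the list medians run from -0.36 for the EGR, NR4A and NPAS genes to 0.09 for the heat shock genes.

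The 26 genes tested of the signalling machinery above the early genes were also without a call by edgeR or DESeq2. Of these, 9 were higher and 17 lower. At an unadjusted p under 0.05 with a 1.5-fold change in edgeR, where 7.95% of all genes passed, 1 of the 26 did so. This gene, Ep300, which encodes a histone acetyltransferase that CREB recruits, had 110 and 100 counts against 52 and 63 counts (log2 fold change -1.002, edgeR adjusted p = 0.522). Creb1 itself had 102 and 72 against 52 and 66 counts, a value of -0.67 (edgeR adjusted p = 0.578). Camk4, a neuronal kinase of CREB, gave 0.78, at 175 and 82 against 309 and 166 counts (edgeR adjusted p = 0.573). Srf, which is counted among the other early regulators and not among these 26, was at 8.26 to 10.5 FPKM in the 4 libraries and gave -0.24.

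Heat shock genes, which answer protein damage and also handling of tissue, had no call by either tool among 13 tested, 11 of them higher. Their median log2 fold change was 0.09, and their summed level was 4194 to 4445 CPM with vehicle and 4387 to 4566 CPM with cisplatin, which overlapped. The values furthest from 0 were those of Hspa1b, Hspa8 and Bag3, at 0.30, 0.29 and 0.22, with adjusted p from 0.707 to 0.836 in edgeR. Hspa1b and Hspa1a are near-identical copies, so their separate counts are uncertain.

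By the root-mean-square difference of centred log2 CPM over the 4 libraries, the profiles nearest to the mean of the members tested were those of Col20a1, Aox4, Hsd3b7, Stard3nl and Cybb, at 0.00828 to 0.0178. Cybb had 211 and 213 counts with vehicle and 209 and 241 with cisplatin. The likeness is common, since 5.70% of the 14550 genes compared lay within 0.1, and it rests on 4 points.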

How the data were processed

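Polyadenylated RNA of 4 lumbar DRG libraries was sequenced. The authors mapped reads to Rnor_6.0 (HISAT2 2.0.5), assembled them (StringTie 1.3.3b) and deposited whole-number counts per gene without normalisation. The authors also deposited FPKM, counts scaled by gene length and by a factor per library. Between libraries the FPKM of members followed their normalised CPM more closely than their counts over the total count. The limma fits on FPKM are thus not an independent check of the scaling. featureCounts 1.5.0-p3 is among the tools of the submitters' processing notes; whether strand was used is not given in the sources used here, so overlapping genes are uncertain.

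Samples were grouped by the treatment in their titles. Protein-coding genes kept by edgeR's filterByExpr were TMM-normalised; the test was glmQLFTest after glmQLFit (edgeR 4.0.16, R 4.3.3); 95% intervals used the standard error from the F statistic and the test's degrees of freedom, without adjustment over genes. DESeq2 1.42.0 was run with independent filtering set for 0.05, and limma 3.58.1 on log2(FPKM + 1) and log2(FPKM + 0.1), which understates the change of low genes. Centred log2 CPM used a prior count of 2. The length correction was a lowess curve of span 0.3 per library. The tests were checked on simulated data. Floors of 3 counts cover counting error only, since PCR copies of a molecule could not be told from separate molecules.

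The members and lists were chosen with earlier results of these data known. Named beside the members were the genes of each list called by edgeR or DESeq2, the 3 non-members with the log2 fold change furthest from 0, and the 5 nearest profiles; Jund, Atf3, Srf and Egr4 were chosen after their values were seen. Of the 72 immediate early genes, 69 had a protein-coding row.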

Additional observations from a re-analysis of the deposited data

How the results depend on the processing

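No member was called under any alternative, over 136 values for the 8 members tested; 128 kept their direction and 8 reversed, with adjusted p of 0.108 or more. With DESeq2, 45 genes were called higher, 81 lower and 1 of the wider list of 72 immediate early genes (Per1), and with its default independent filtering, an alternative chosen after seeing the data, 36, 63 and 0. Genes called higher and lower were 2 and 2 without a filter on low counts, 1 and 1 with a minimum of 10 counts per library, 2 and 2 with limma on log2(FPKM + 1), 1 and 1 with limma on log2(FPKM + 0.1), and 407 and 763, with 3 of the wider list, at an unadjusted p. All gene biotypes, scaling by library size alone, DESeq2 size factors, limma on log2(FPKM + 1) without a filter and the gene length correction each gave 0 higher and 1 lower, as reported. Over all genes tested, the log2 fold change correlated with gene length (Spearman coefficient -0.357). The length correction turned Fosb to 0.0174, so that 4 of 8 members were higher. It put Fos at -0.20, Nr4a1 and Arc at -0.22, Egr3 at -0.41, Egr1 at 0.22, Junb at 0.30 and Dusp1 at 0.20.

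Leaving out 1 library at a time gave 0 to 4 genes called higher and 0 to 4 lower, 2 to 6 members higher and a median log2 fold change of the members from -0.23 to 0.11. Nr4a1 ran from -0.81 to 0.15, Egr1 from -0.13 to 0.48, Fos from -0.30 to 0.11, Arc from -0.74 to 0.0677, Dusp1 from 0.13 to 0.39, Junb from 0.31 to 0.47, Egr3 from -0.67 to -0.19 and Fosb from -0.16 to -0.026. Egr1 reversed without vehicle replicate 1, Arc without cisplatin replicate 1, and Nr4a1 and Fos without vehicle replicate 2 or cisplatin replicate 1. The lone library left in a group was assumed to vary like the other group.

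The replicate numbers in the labels belong to different rats. Whether libraries with the same number share anything else is not given in the sources used here. Differences between replicates 2 and 1 in the groups correlated across genes, which are not independent replicates, with r = 0.444. With the number as a replicate block, 494 genes were called higher and 1038 lower, 10.4% of those tested, with 0 of 8 members and 4 of the wider list (Egr2, Per1, Klf6 and Dusp4). The block together with the length correction gave 254 higher, 709 lower and 5 of the wider list (Egr2, Bdnf, Per1, Cyr61 and Klf6), and Fosb at 0.0166. Depth limits Fosb, with 20 to 23 counts, and Npas4, with at most 1. The cause of these shifts was not tested.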
